A study of Mus musculus with 76 samples.

Results

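The 36 genes described here encode structural, energy and signalling proteins of the sperm tail. They were chosen by name from 5 roles: 5 genes of the fibrous sheath, 6 of the outer dense fibres and of the tail's attachment, 8 sperm energy enzymes and mitochondrial capsule genes, 12 ion channel, pump and soluble adenylyl cyclase genes, and 5 Tssk kinases. The choice was made with earlier results of these data known. All 36 were found among the 25567 genes measured. RNA was sequenced from testis, ovary, brain and liver of 30 wild-derived house mice (Mus musculus domesticus) of a population from Illnau, reared in the laboratory to sexual maturity. They were sampled as 15 sibling pairs of 1 sex each, from 10 litters, with 1 animal +/t and the other +/+. A t haplotype is an altered, inversion-bearing proximal chromosome 17, of which +/t animals carry 1 copy. Testis had 6 +/t and 6 +/+ libraries, ovary 7 and 7, male brain 5 and 5, female brain 7 and 7, male liver 7 and 7, and female liver 6 and 6. Each library came from the whole tissue of 1 animal.

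A sperm tail is built around an axoneme. Outer dense fibres run along it, with a sheath of mitochondria in the midpiece and a fibrous sheath in the principal piece. The fibrous sheath anchors protein kinase A and holds glycolytic enzymes, several of which are made from genes used in spermatids in place of the copies that other cells use. CatSper, a calcium channel of the tail membrane, the sperm potassium channel and soluble adenylyl cyclase take part in the changes of motility that precede fertilisation. Most of these proteins are made in spermatids after meiosis. The t haplotype is known for being passed to most offspring of +/t males, through products of t genes that alter sperm motility.

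Testis libraries held 11.4 M to 28.4 M counts (1 M is 1000000), ovary 9.34 M to 23.9 M, brain 16.96 M to 45.2 M and liver 8.27 M to 21.2 M. In 7 of the 76 libraries, 59.3% to 68.1% of the counts of moderately expressed genes were even, where the remaining 69 had 48.7% to 51.2%. The +/t testes of pairs 2 and 3 are among these 7 and are the deepest testis libraries, at 27.2 M and 28.4 M counts. The testis label was checked against markers. Summed levels of 7 spermatid chromatin genes were 11180 to 13820 CPM (counts per 1000000 counts of the library) in +/t testes and 10540 to 13070 CPM in +/+ testes. Summed levels of 8 epididymal genes were at most 1.03 CPM in +/t testes and 1.76 CPM in +/+ testes, and Lcn5 was at 0 in every testis library.

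No member lies in the t region, taken as chromosome 17 up to 40 Mb. Catsperd, a subunit of CatSper, is the 1 member on chromosome 17, at 56628143 to 56664456 (GRCm38). In testis every member was well counted: the lowest count of any member in a testis library was 266, for Lrrc52.

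Levels of different genes were compared as CPM per kb of merged exons. The merged exons include every annotated transcript, so genes with many long transcripts, such as Odf2 with 9919 bases, get a lower value per kb. The most abundant member per kb was Ldhc, the lactate dehydrogenase of sperm, at 1976 ± 65.6 CPM per kb in +/t testes and 1958 ± 75.1 CPM per kb in +/+ testes (SD, n = 6 each). Smcp, a cysteine-rich protein of the mitochondrial capsule, followed at 1464 ± 102 CPM per kb in +/t testes and 1414 ± 94.2 CPM per kb in +/+ testes. Odf1, a main protein of the outer dense fibres, was at 1050 ± 56.8 CPM per kb in +/t testes and 997 ± 46.0 CPM per kb in +/+ testes. These levels stood apart from each other by more than their SD.

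Next in this order, Ropn1l, which binds the kinase anchors of the fibrous sheath, had 876 ± 13.9 CPM per kb in +/t testes and 855 ± 18.1 CPM per kb in +/+ testes. Gapdhs, the glyceraldehyde 3-phosphate dehydrogenase of sperm, had 857 ± 31.2 CPM per kb in +/t testes and 823 ± 30.8 CPM per kb in +/+ testes. The gap between Ropn1l and Gapdhs was smaller than the SD of Gapdhs in +/t testes and larger than it in +/+ testes. Akap4, the most abundant kinase anchor of the sheath, was at 732 ± 39.7 CPM per kb in +/t testes and 707 ± 28.7 CPM per kb in +/+ testes.

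The ion channel genes were the lowest as a group. The sodium pump subunit Atp1a4 was the highest of the 12, at 260 ± 19.8 CPM per kb in +/t testes and 252 ± 17.2 CPM per kb in +/+ testes. The 4 CatSper pore genes lay between 47.6 CPM per kb (Catsper4) and 93.0 CPM per kb (Catsper2) in +/t testes, and between 48.4 and 87.6 CPM per kb for the same genes in +/+ testes. Catsperb, an outer subunit of the channel, was the lowest member, at 17.7 ± 0.731 CPM per kb in +/t testes and 17.6 ± 0.911 CPM per kb in +/+ testes. Lrrc52, the partner subunit of the sperm potassium channel, was at 22.8 ± 1.64 CPM per kb in +/t testes and 25.5 ± 2.04 CPM per kb in +/+ testes.

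**Figure D1:**
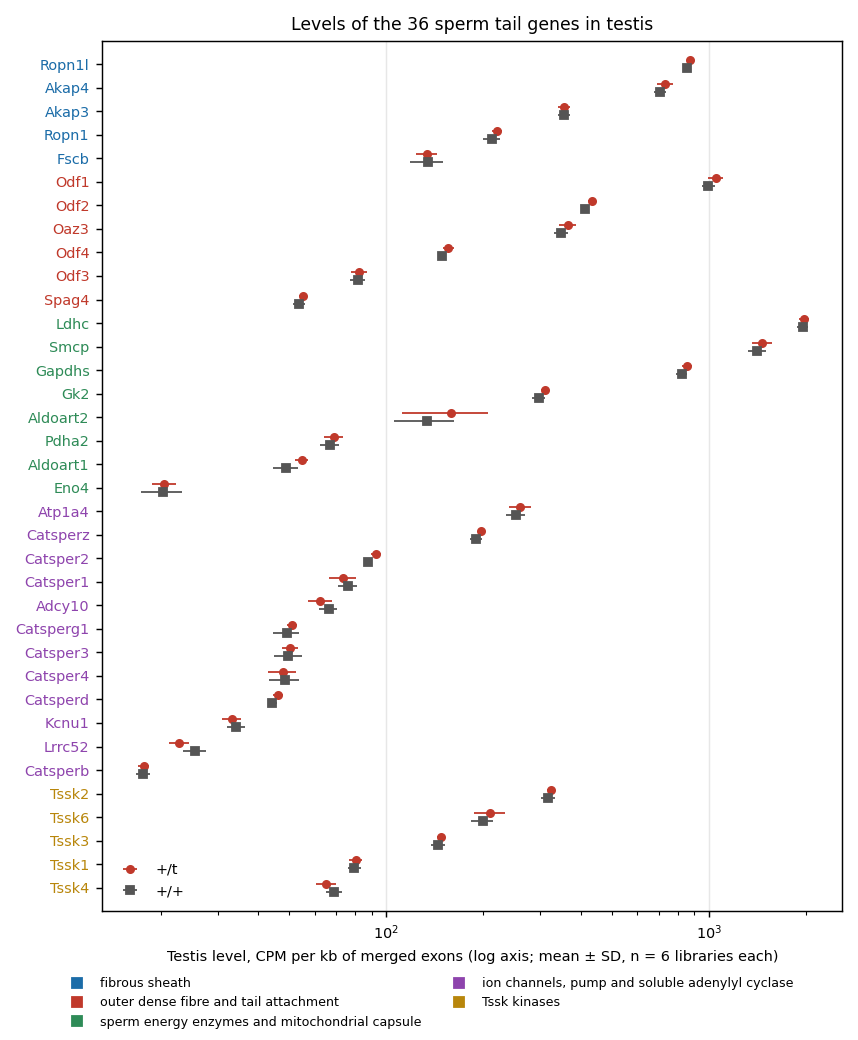
Level of each member in testis, in CPM per kb of merged exons on a log axis; red circles are +/t and grey squares +/+ (mean ± SD, n = 6 libraries each), and symbols are coloured by role. Levels run from 17.6 CPM per kb for Catsperb to 1976 CPM per kb for Ldhc, and the genotypes lie close together for every gene.

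The comparison of +/t with +/+ testes asks whether carrying the t haplotype goes with other levels of tail genes elsewhere in the genome. In +/t testes 3 of the 36 members were higher by the edgeR quasi-likelihood test with sibling pairs: Odf1, Odf2 and Aldoart2. None of the 36 was lower. Of all 15509 genes tested, 0.748% were called higher and 0.458% lower, 1.21% in all. The changes were small: the fold change was above 0 for 30 of the 36 members, against 48.9% of all genes, and the median log2 fold change was 0.061 over the members and -0.003 over all genes. At an unadjusted p under 0.05 there were 19 members, against 2088 of the 15509 genes (13.5%). Without the pair term there were 5, against 972 genes (6.27%). Scaling by library totals alone left 29 members above 0, with a median of 0.038 against -0.025 over all genes. With that scaling 0 members passed the threshold, against 154 genes (0.993%).

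Summed over the 36 members, the level was higher in the +/t sibling in each of the 6 pairs. The members took 2.31% to 2.51% of the counts of a +/t testis and 2.23% to 2.43% of the counts of a +/+ testis. Taken singly, 10 members were higher in +/t in 6 of 6 pairs, a pattern seen in 3.17% of all genes, and 1 was lower in 6 of 6, as 5.02% of all genes were. For all 36 members the ranges of the +/t and +/+ libraries overlapped, as they did for most genes. Of all genes 0.368% lay above and 0.4% below without overlap, so 0 of 36 members is close to the share of all genes. In whole tissue, a change in the number of spermatids and a change in RNA per spermatid cannot be told apart.

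**Figure D2:**
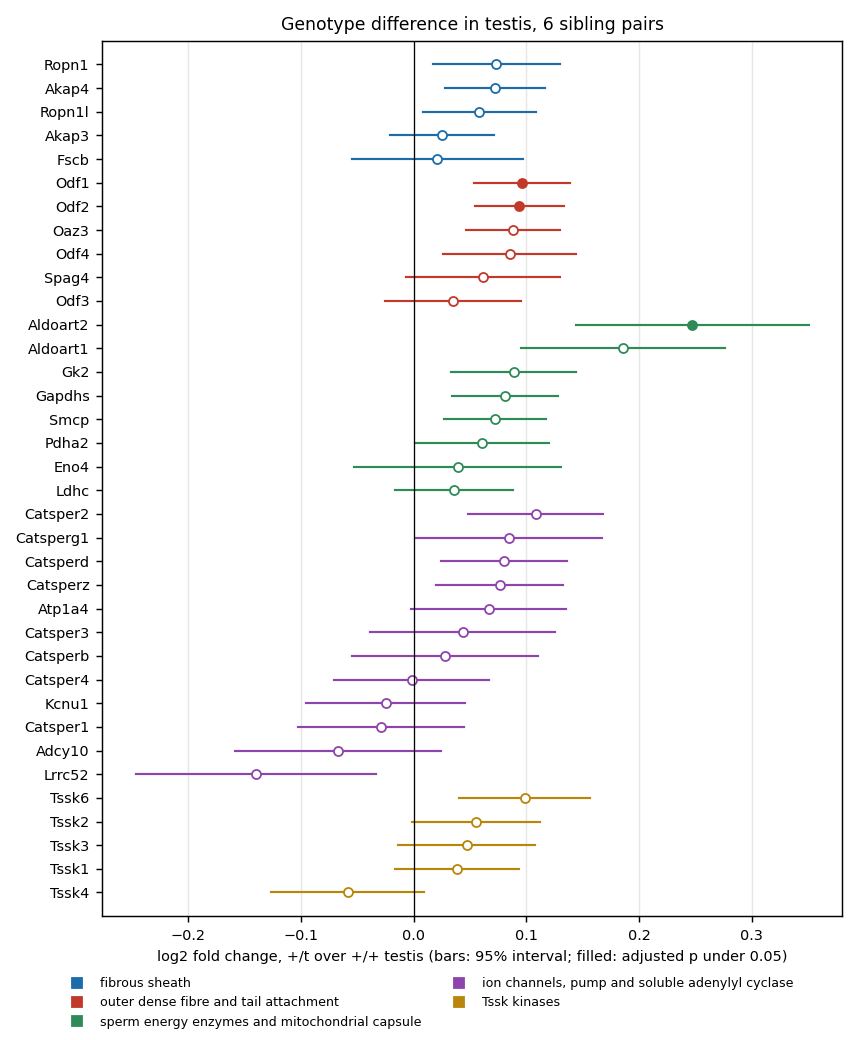
Log2 fold change of each member, +/t over +/+ testis, with its 95% interval, grouped by role; filled points passed an adjusted p of 0.05. Of the 36 points, 30 lie right of 0, and the filled ones are Odf1, Odf2 and Aldoart2.

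Among the outer dense fibre and attachment genes 2 of 6 passed, all 6 fold changes were above 0, and 4 were higher in +/t in 6 of 6 pairs. Odf2, the other main fibre protein and also a centrosome protein in other cells, is on chromosome 2 at 29889221 to 29931746. Its lowest, median and highest levels were 4159, 4298 and 4453 CPM in +/t testes, and 3921, 4096 and 4237 CPM in +/+ testes. The upper +/t libraries were above every +/+ library, and the lower ones were within the +/+ range. The log2 fold change was 0.094 ± 0.018 (SE, adjusted p = 0.0269), with the +/t sibling higher in 6 of 6 pairs.

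Odf1, on chromosome 15 at 38219203 to 38226735, had a lowest, median and highest level of 1078, 1141 and 1259 CPM in +/t testes, and of 1051, 1083 and 1166 CPM in +/+ testes. The +/t testes of pairs 3 and 7 were the highest, at 1203 and 1259 CPM, and their +/+ siblings were also the highest of their group, at 1164 and 1166 CPM. The log2 fold change was 0.096 ± 0.020 (SE, adjusted p = 0.0389), with the +/t sibling higher in 6 of 6 pairs. The 95% interval ran from 0.053 to 0.139.

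Oaz3, a testis antizyme with products in the tail, missed the threshold. It had 1439, 1591 and 1710 CPM (lowest, median and highest) in +/t testes, and 1402, 1509 and 1592 CPM in +/+ testes, with the +/t sibling higher in 6 of 6 pairs and a log2 fold change of 0.088 ± 0.019 (SE, adjusted p = 0.0523). Its exons share 2255 bases with those of Tdrkh on the opposite strand, so without a known strand setting its counts may hold reads of that gene. Odf4, a membrane-associated tail gene, had a log2 fold change of 0.085 (adjusted p = 0.191) and was also higher in 6 of 6 pairs. Spag4, a nuclear envelope protein that binds Odf1, had 0.061 (adjusted p = 0.428) and was higher in 3 of 6 pairs. Odf3 had the smallest log2 fold change of the role, at 0.035 (adjusted p = 0.633).

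Among the energy genes 1 of 8 passed, and all 8 log2 fold changes were above 0. That gene was Aldoart2, which with Aldoart1 is a retrogene of the muscle aldolase gene Aldoa. Aldoart2, on chromosome 12 at 55565239 to 55566896, had 184, 248 and 371 CPM (lowest, median and highest) in +/t testes, and 163, 228 and 281 CPM in +/+ testes. The +/t testes of pairs 2 and 7 were above every +/+ testis, at 341 and 371 CPM, while those of pairs 3 and 4 lay in the lower part of the +/+ range, at 190 and 184 CPM. The log2 fold change was 0.247 ± 0.047 (SE, adjusted p = 0.0269), with the +/t sibling higher in 6 of 6 pairs.

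Aldoart1, on chromosome 4 at 72850583 to 72852634, had 102, 114 and 116 CPM in +/t testes, and 87.7, 99.4 and 112 CPM in +/+ testes. All but the lowest +/t library, that of pair 2, were above the +/+ median by more than the SD of the +/+ libraries, 8.85 CPM. The log2 fold change was 0.186 ± 0.041 (SE, adjusted p = 0.0575), higher in 6 of 6 pairs. Both aldolase retrogenes had larger fold changes than every other member.

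The 3 aldolase genes are alike in sequence, which bears on how reads could be shared between them. The coding sequence is 1092 bases long in each. Aldoart1 differed from Aldoa at 63 of these positions, with a longest identical stretch of 86 bases, and Aldoart2 at 91 positions, with a longest identical stretch of 49 bases. Aldoart2 and Aldoart1 differed at 119 positions and shared at most 54 bases in a row. The first 120 coding bases are shown with every base that differs from Aldoa in capitals, 11 in Aldoart1 and 7 in Aldoart2, read from the M21 transcripts (GRCm38).
Aldoart1: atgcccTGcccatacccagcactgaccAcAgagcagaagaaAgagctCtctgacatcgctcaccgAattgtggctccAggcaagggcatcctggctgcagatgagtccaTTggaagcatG
Aldoart2: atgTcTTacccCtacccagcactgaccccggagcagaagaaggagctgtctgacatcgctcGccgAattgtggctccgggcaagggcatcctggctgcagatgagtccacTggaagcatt
Aldoa: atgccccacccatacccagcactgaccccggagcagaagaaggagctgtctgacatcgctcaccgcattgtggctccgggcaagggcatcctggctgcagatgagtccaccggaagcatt
How the authors counted reads that match several genes is not given in the sources used here, so the levels of these genes are uncertain to that extent. Aldoa itself averaged 364 ± 16.8 CPM in +/t testes and 355 ± 12.6 CPM in +/+ testes (SD, n = 6 each), with a log2 fold change of 0.056 (adjusted p = 0.315).

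**Figure D3:**
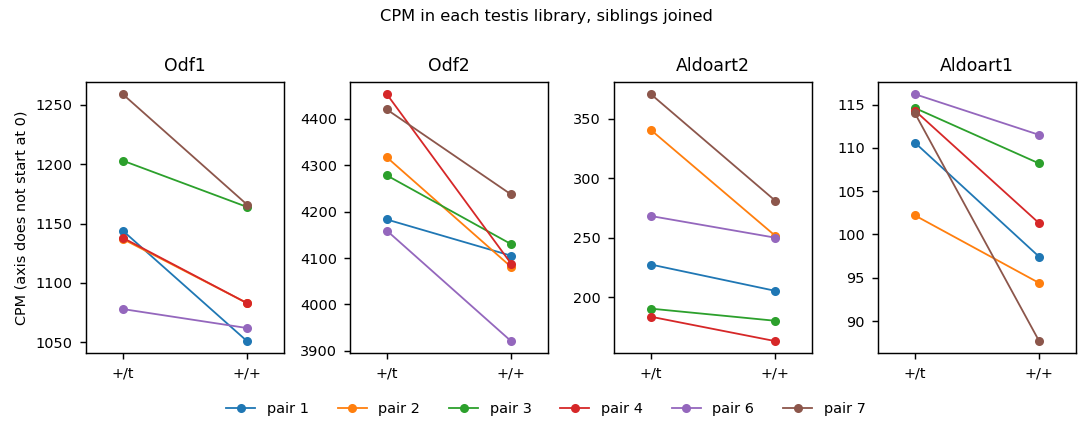
CPM of Odf1, Odf2, Aldoart2 and Aldoart1 in each testis library, +/t left and +/+ right, with lines joining the siblings of a pair; the vertical axes do not start at 0. Every line falls to the right, and for Aldoart2 the pairs differ from each other by more than the siblings do.

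The other energy genes did not pass. Gapdhs had 1335, 1363 and 1470 CPM in +/t testes, and 1270, 1321 and 1412 CPM in +/+ testes, with a log2 fold change of 0.081 ± 0.022 (SE, adjusted p = 0.118) and 6 of 6 pairs higher. Gk2, a testis glycerol kinase, had a log2 fold change of 0.089 (adjusted p = 0.143), and Smcp 0.072 (adjusted p = 0.145). Pdha2, the testis subunit of pyruvate dehydrogenase, had 0.060 (adjusted p = 0.362) and Eno4, an enolase of the sperm tail, 0.039 (adjusted p = 0.748). Ldhc, the most abundant, had the smallest log2 fold change of the role, at 0.036 (adjusted p = 0.564, 95% interval -0.017 to 0.088).

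None of the 5 fibrous sheath genes passed, with all 5 log2 fold changes above 0. Akap4 had 2023, 2226 and 2339 CPM in +/t testes, and 1994, 2160 and 2253 CPM in +/+ testes. The ranges overlapped widely, although the +/t sibling was higher in 6 of 6 pairs, by little in pair 1 (2172 CPM against 2169 CPM). Its log2 fold change was 0.072 ± 0.020 (SE, adjusted p = 0.137). Ropn1, a relative of Ropn1l, had the largest value of the role, 0.073 (adjusted p = 0.237), and Fscb, a calcium-binding sheath protein, the smallest, 0.021 (adjusted p = 0.850). Ropn1l had 0.058 (adjusted p = 0.296), and Akap3, the other main kinase anchor, 0.025 (adjusted p = 0.665). By CPM, Ropn1 and Ropn1l were higher in the +/t sibling in 5 of 6 pairs each, while Akap3 and Fscb were lower in 4 of 6 each. Fscb averaged 449 CPM in +/t testes and 451 CPM in +/+ testes, and its log2 fold change was -0.0016 with library totals alone.

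None of the 12 channel, pump and cyclase genes passed, and they were the most mixed role, with 7 log2 fold changes above 0 and 5 below. Catsper2, a pore subunit, had 328, 345 and 362 CPM in +/t testes, and 319, 324 and 329 CPM in +/+ testes. Only the +/t testis of pair 1 lay within the narrow +/+ range. The log2 fold change of Catsper2 was 0.108 ± 0.027 (SE, adjusted p = 0.0966), with 6 of 6 pairs higher. The other pore genes had log2 fold changes of 0.044 (Catsper3, adjusted p = 0.671), -0.002 (Catsper4, adjusted p = 0.988) and -0.029 (Catsper1, adjusted p = 0.770).

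Of the other CatSper subunits, Catsperd had a log2 fold change of 0.080 (adjusted p = 0.191) and was higher in 6 of 6 pairs. Catsperz had 0.076 (adjusted p = 0.216), but it shares 587 exon bases with Kcnk4 on the same strand, and reads there cannot be assigned. Catsperg1 had 0.084 (adjusted p = 0.360). A near copy, Catsperg2, matches it at 96.3% over 4411 bases and had 0.078 (adjusted p = 0.256). Catsperb had 0.028 (adjusted p = 0.812).

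The potassium channel subunit Lrrc52 was the 1 member lower in +/t in 6 of 6 pairs. It had 23.4, 26.7 and 27.9 CPM in +/t testes, and 24.9, 29.3 and 31.4 CPM in +/+ testes. Pair 4 was the lowest pair in both groups. The log2 fold change was -0.140 ± 0.049 (SE, adjusted p = 0.233), with a 95% interval of -0.246 to -0.033. Kcnu1, the pore of the same channel, had -0.025 (adjusted p = 0.799). Adcy10, the soluble adenylyl cyclase, had -0.067 (adjusted p = 0.523) and Atp1a4 0.066 (adjusted p = 0.390).

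None of the 5 Tssk kinases, testis-specific kinases of spermatids, passed, and 4 of the 5 log2 fold changes were above 0. Tssk6 had 226, 285 and 314 CPM in +/t testes, and 228, 266 and 289 CPM in +/+ testes, a log2 fold change of 0.099 ± 0.027 (SE, adjusted p = 0.121). Both siblings of pair 4 were lowest, and the groups overlapped. Its exons share 375 bases with Ndufa13 on the opposite strand. Tssk4 had a log2 fold change of -0.059 (adjusted p = 0.447), with the +/t sibling lower in 5 of 6 pairs. Tssk2, Tssk3 and Tssk1 had 0.056, 0.047 and 0.038 (adjusted p = 0.380, 0.504 and 0.556).

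The 3 calls depended on the libraries used. No member passed without pair 2, without pair 4 or without pair 7, against 137 of 15548, 103 of 15552 and 116 of 15538 genes. Aldoart2 passed without pair 3 (89 genes in all) and without pair 6 (109 genes). Aldoart2 and Odf2 passed without pair 1 (159 genes). Without pairs 2 and 3 together, which hold the +/t testes with an excess of even counts, 0 members and 65 genes passed, with log2 fold changes of 0.105 for Odf1, 0.098 for Odf2 and 0.231 for Aldoart2. With DESeq2, 5 members passed, Oaz3 and Aldoart1 being added, against 206 of 15509 genes.

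Other genes of these structures gave 4 calls in +/t testes, all higher, among 6 related lists. Of all 15509 genes tested, 0.748% were called higher and 1.21% in all. These lists were chosen with earlier results of these data known, so the 4 calls are not independent of those results. Of 20 further glycolysis and lactate genes 1 passed. That was Pgk2, the phosphoglycerate kinase of spermatids, on chromosome 17 at 40207015 to 40208640, just beyond the end taken for the t region. It averaged 1822 ± 251 CPM in +/t testes and 856 ± 47.3 CPM in +/+ testes (SD, n = 6 each), a log2 fold change of 1.10 ± 0.059 (SE, adjusted p = 8.0e-07). Slc26a8, an anion transporter of the sperm annulus and 1 of 14 ion transport genes tested, lies in the t region and had a log2 fold change of 0.335 (adjusted p = 0.000261). Spa17, 1 of 9 other sheath and kinase A genes, had 0.110 (adjusted p = 0.0293). Spata19, 1 of 12 mitochondrial genes, had 0.125 (adjusted p = 0.0272). None of 9 other dense fibre and coupling genes and none of 6 Tssk partner genes passed.

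Markers of the cell types of the testis were set beside these values. No tested gene of the 14 marker lists passed, where 1.21% of all genes did. The median log2 fold change was 0.078 over 7 spermatid chromatin genes and 0.046 over 8 round spermatid and acrosome genes, against -0.019 over 9 spermatocyte genes, -0.032 over 10 Sertoli cell genes and -0.275 over 7 Leydig cell genes. It was 0.016 over 9 spermatogonia genes, -0.023 over 5 myoid, -0.030 over 6 macrophage, -0.030 over 6 endothelial, 0.053 over 6 ciliated cell, 0.031 over 5 neural, 0.192 over 4 ovarian and -1.11 over 5 hepatocyte genes. The summed spermatocyte markers were 1577 to 1767 CPM in +/t testes and 1648 to 1882 CPM in +/+ testes, lower in the +/t sibling in 6 of 6 pairs. The summed Sertoli markers were 867 to 1092 CPM in +/t testes and 964 to 1239 CPM in +/+ testes, higher in +/t in 1 of 6 pairs. The summed spermatid chromatin markers were higher in +/t in 4 of 6 pairs. The summed round spermatid and acrosome markers were higher in +/t in 3 of 6 pairs, with medians of 1535 CPM in +/t testes and 1539 CPM in +/+ testes. The summed hepatocyte markers ranged from 2.12 to 103 CPM in +/t testes and from 5.61 to 184 CPM in +/+ testes. The part of these differences in the members' values was not tested.

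Promoter windows of 300 bases, from 250 before to 50 after a gene's start, were held for 31 of the 36 members in RefSeq (GRCm38.p6). The cyclic AMP response element TGACGTCA, to which the spermatid activator CREM binds, and its core TGACG were searched on both strands, and the core lies within the full element. The full element was in 1 of 31 member genes and in 2.03% of all genes with a window. The core was in 7 of 31 members (22.6%) and in 23% of all genes. CCAAT was in 11 of 31 members (35.5%) and in 41.1% of all genes, and TATAAA in 2 of 31 (6.45%) and in 15.7% of all genes. The windows of both called genes that have one are shown, with that of Spag4, which holds the full element. Capitals mark the core on either strand. Odf2 has 4 windows, of which the first, chr2:29889470-29889769 (plus strand), is given. Aldoart2 is at chr12:55564955-55565254 (plus strand) and Spag4 at chr2:156064963-156065262 (plus strand).
Odf2: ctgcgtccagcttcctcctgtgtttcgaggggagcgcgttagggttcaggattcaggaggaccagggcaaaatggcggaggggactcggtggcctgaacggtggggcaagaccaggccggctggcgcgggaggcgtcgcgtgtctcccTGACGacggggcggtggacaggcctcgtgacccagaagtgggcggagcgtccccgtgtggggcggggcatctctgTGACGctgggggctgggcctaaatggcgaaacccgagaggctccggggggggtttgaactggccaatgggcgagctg
Aldoart2: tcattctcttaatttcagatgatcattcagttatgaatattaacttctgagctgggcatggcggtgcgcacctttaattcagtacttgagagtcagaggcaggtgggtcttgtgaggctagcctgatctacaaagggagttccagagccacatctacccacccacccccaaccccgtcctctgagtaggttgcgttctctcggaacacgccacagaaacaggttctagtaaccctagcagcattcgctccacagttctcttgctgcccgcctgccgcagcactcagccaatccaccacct
Spag4: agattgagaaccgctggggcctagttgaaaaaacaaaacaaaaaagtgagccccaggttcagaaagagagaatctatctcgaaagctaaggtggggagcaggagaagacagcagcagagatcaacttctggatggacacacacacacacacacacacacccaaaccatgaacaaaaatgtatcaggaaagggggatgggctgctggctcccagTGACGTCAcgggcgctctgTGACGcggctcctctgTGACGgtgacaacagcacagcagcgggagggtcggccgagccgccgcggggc
The Odf2 window shown holds the core at 2 places and the Aldoart2 window at none, so these 2 genes do not share this motif in these windows. Of the other Odf2 windows, that starting at 29889567 holds it at 2 places and those starting at 29889740 and 29889813 at 0. Odf1, the remaining called gene, has no window.

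More members differed between sibling pairs than between genotypes, as did more of all 15509 genes (1900 against 187). The tests differ in their number of terms, so their counts are not directly comparable. A test of all pair terms in testis asks whether members vary between families. Of the 36 members 21 passed, against 12.3% of all genes. By role these were 4 of 5 fibrous sheath, 4 of 6 dense fibre, 5 of 8 energy, 5 of 12 channel and 3 of 5 Tssk genes. The span of the members was small all the same: the median log2 distance between the lowest and the highest pair was 0.193 over the members and 0.343 over all genes tested. Genes entered the test from a minimum count of 10, while the lowest count of a member in a testis library was 266. Neither this contrast nor that of the genes that passed was matched for level. Each pair is 1 litter, so litter, pair and handling of the samples cannot be told apart.

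Aldoart2 varied most, with mean levels of 216, 296, 185, 173, 259 and 326 CPM in pairs 1, 2, 3, 4, 6 and 7. The highest and lowest pairs were 0.90 apart on the log2 scale (adjusted p = 0.000353). Aldoart1 had 98.3 to 114 CPM (adjusted p = 0.307), with pair 6 highest and pair 2 lowest. Eno4 was lowest in pair 1, at 43.0 CPM, and highest in pair 6, at 60.5 CPM (adjusted p = 0.0202). Tssk6 was lowest in pair 4, at 227 CPM, and highest in pair 7, at 301 CPM (adjusted p = 0.00298). Ropn1l was the steadiest member, at 811 to 837 CPM (adjusted p = 0.245).

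Pair 6 was the lowest pair for 22 of the 36 members, while 13.1% of all genes were lowest there. Pair 7 was the highest pair for 13 members, against 9.39% of all genes, and the lowest for 0, against 23.0% of all genes. Pair 6 was the highest pair for 4 members, against 36.01% of all genes. These ranks use CPM on deposited totals, on which all genes were shifted between pairs. The median log2 deviation over all genes was 0.061 in pair 6 and -0.033 in pair 7, and over the members -0.078 and 0.051. Fscb had 375 CPM in pair 6 and up to 491 CPM in pair 4 (adjusted p = 0.00599). Akap4 had 2008 CPM in pair 6 and up to 2287 CPM in pair 7 (adjusted p = 0.00669), and Catsper1 143 CPM in pair 6 and up to 180 CPM in pair 2 (adjusted p = 0.0145). Without pair 6, 7 members passed, against 5.21% of all genes, and with scaling by library totals alone 13 members passed, against 11.2% of all genes.

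Cell type markers also differed between pairs. In pair 6 the summed Sertoli markers were highest, at 1165 CPM against 946 to 1042 CPM in the other pairs, as were the summed Leydig markers, at 1136 CPM against 697 to 1068 CPM. That Leydig value is the mean of 825 CPM in the +/t testis of pair 6, below the +/t testes of pairs 1 and 4, and 1446 CPM in its +/+ sibling. The summed round spermatid and acrosome markers were lowest in pair 6, at 1407 CPM against 1495 to 1599 CPM. The summed spermatid chromatin markers were 11680 CPM in pair 6, with pair 4 lowest at 10880 CPM and pair 7 highest at 13450 CPM. The mean summed spermatogonia, myoid, endothelial, neural and ovarian markers were also highest in pair 6, and the ciliated cell markers lowest. The neural mean joins 68.46 CPM in the +/t testis and 36.95 CPM in its +/+ sibling. For the endothelial markers neither library of pair 6 was the highest of its group. They had 45.13 CPM in +/t, against 50.02 CPM in pair 4, and 44.7 CPM in +/+, against 47.76 CPM in pair 1. In the pairs test, which 12.3% of all genes passed, 6 of 7 spermatid chromatin genes, 6 of 8 round spermatid genes and 2 of 10 Sertoli genes passed. So did 5 of 9 spermatocyte, 3 of 7 Leydig, 1 of 9 spermatogonia, 1 of 6 ciliated cell and 3 of 4 ovarian genes. In lists this short, the Sertoli, spermatogonia and ciliated cell counts are near the share of all genes. No myoid, macrophage, endothelial, neural or hepatocyte gene passed. The part of these markers in the members' pattern was not tested.

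**Figure D4:**
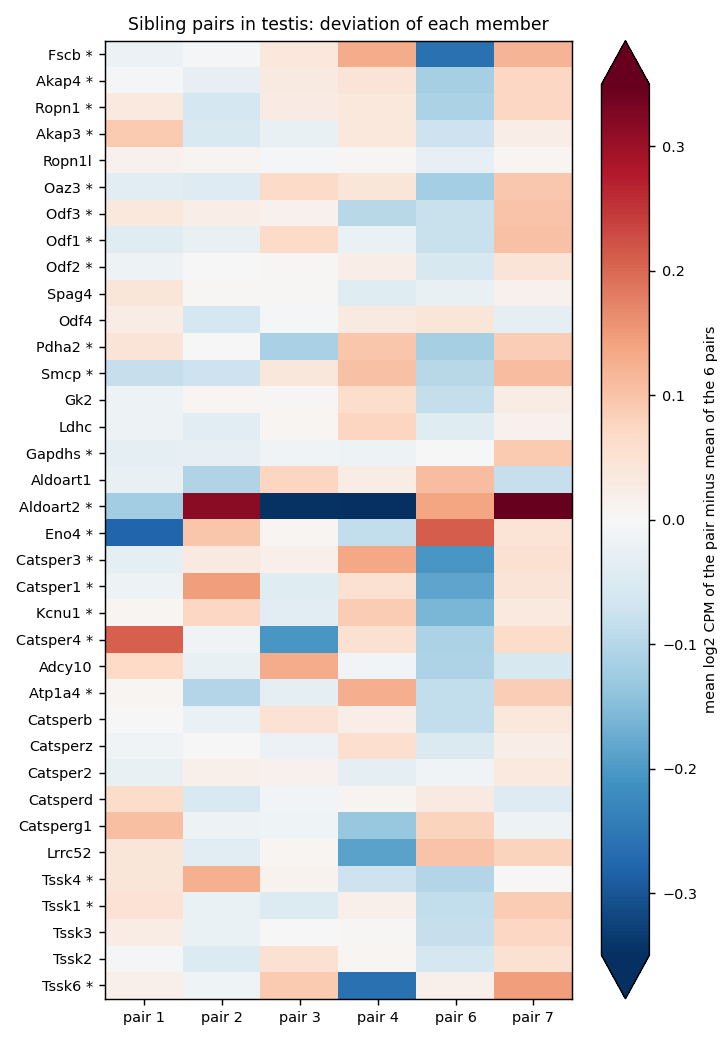
Deviation of each member in each sibling pair, as the mean log2 CPM of the pair minus the mean of the 6 pairs, grouped by role; asterisks mark the 21 members that passed the test of pair terms, and the colour scale stops at 0.35. Pair 6 is blue for most members, pair 7 is red, and Aldoart2 goes past the scale in pairs 4 and 7.

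In the other tissues most members were at very low levels. All 36 were higher in +/+ testes than in +/+ male liver, male brain and ovary, against 52.2%, 45.3% and 44.1% of all genes called higher in testis. In either direction 91.4%, 90.1% and 91.3% of genes were called. Another scaling moved the median of all genes by more than 0.1 on the log2 scale in each comparison (0.486 with TMM and 0.633 with RLE size factors for liver), and the 36 of 36 held under each. It also held for liver without pair 3, whose male liver titles and genotype labels conflict.

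The member with the smallest gap in each comparison had counts in every library of the tissue compared. Eno4 was higher in +/+ testis than in +/+ ovary by a log2 fold change of 3.10 ± 0.114 (SE, adjusted p = 9.4e-14) and than in +/+ male brain by 4.75 ± 0.144 (SE, adjusted p = 2.5e-10). Catsper2 was the member with the smallest gap to +/+ male liver, at 5.41 ± 0.109 (SE, adjusted p = 1.6e-11). Odf2 had 3921 to 4453 CPM in testis, and 94.6 to 126 CPM in ovary, 47.1 to 109 CPM in brain and 10.6 to 21.9 CPM in liver. It was the one member above 20 CPM in any library of another tissue.

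Of the 64 libraries of other tissues, 6 members had a count in each, namely Ropn1l, Odf2, Spag4, Catsper2, Catsperd and Catsperg1. The other 30 were at 0 in at least 1, and 15 never went above 1 CPM. Catsperb was the member most often at 0, in 59 of the 64 libraries. Ropn1l had 5.51 to 11.1 CPM in liver, 2.40 to 4.98 CPM in ovary and 0.177 to 1.10 CPM in brain, ranges that did not overlap.

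**Figure D5:**
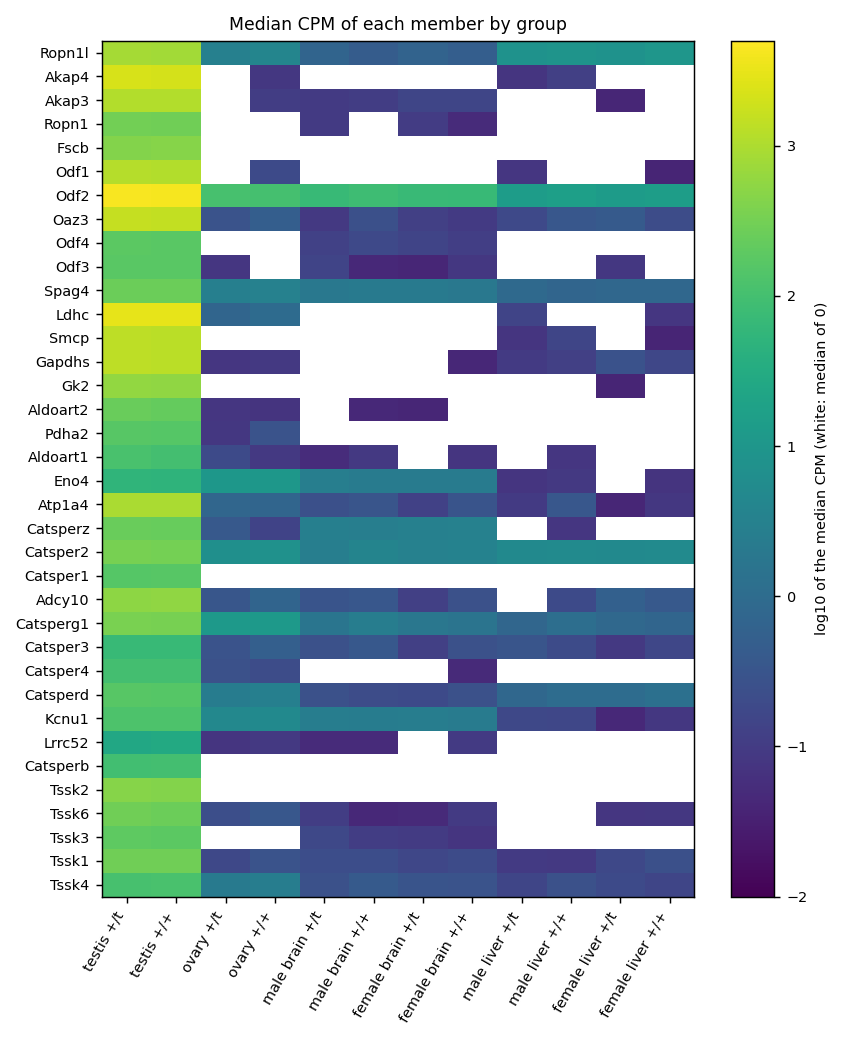
Median CPM of each member in the 12 groups of tissue, sex and genotype, on a log10 colour scale, with +/t left of +/+; white marks a median of 0. Both testis columns are bright for all 36 genes, and Odf2 is the brightest row elsewhere.

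Enough counts for a test were present for 11 members in at least 1 other tissue, and for 25 in none. No member passed between +/t and +/+ animals in ovary (10 tested, 0.104% of all genes called), male brain (8 tested, 0.251%), female brain (8 tested, 0.245%), male liver (6 tested, 0.0754%) or female liver (5 tested, 0.0909%). By the same edgeR test, an unadjusted p under 0.05 was reached by 1 member each in male brain (Odf2), female brain (Ropn1l) and female liver (Ropn1l), and by none in ovary and male liver. Of all genes tested, 8.44% reached it in male brain, 5.45% in female brain, 6.98% in female liver, 2.57% in ovary and 4.85% in male liver. DESeq2 also called no member in these 5 comparisons.

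Odf2, which rose in +/t testes, averaged 112 ± 9.69 CPM in +/t ovaries and 108 ± 6.76 CPM in +/+ ovaries (SD, n = 7 each), a log2 fold change of 0.060 (adjusted p = 0.999). In male brain it averaged 71.4 ± 7.16 CPM in +/t and 83.5 ± 13.8 CPM in +/+ animals (SD, n = 5 each), a log2 fold change of -0.200 (adjusted p = 0.574). In female brain the log2 fold change of Odf2 was -0.131 (adjusted p = 0.887), in male liver -0.132 (adjusted p = 0.978) and in female liver -0.128 (adjusted p = 0.877). Whether these values differ from that in testis was not tested.

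Low levels of testis genes were looked for in single libraries by summing the 25 members without enough counts elsewhere. The sum was 13280 to 15000 CPM in +/t testes and 13040 to 14490 CPM in +/+ testes. It was 3.01 to 9.90 CPM in ovary, 1.06 to 2.76 CPM in brain and 0.565 to 4.57 CPM in 24 of the 26 liver libraries. The +/+ male liver of pair 1 had 21.1 CPM and the +/+ female liver of pair 4 had 16.8 CPM, which are 0.152% and 0.120% of the testis median. In the first, Akap4 had 32 counts, Gapdhs 31, Smcp 30 and Akap3 22, and in the second 53, 21, 24 and 22. The source of these counts was not tested.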

How the data were processed

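RNA was measured in whole testis, ovary, brain and liver. The library kit was a stranded kit for mRNA, per the labels' protocols. Alignment to GRCm38 used STAR 2.5.1b and counting used featureCounts, per the submitters' processing notes. Neither the strand setting nor the gene annotation of the counting is given in the sources used here. Each deposited file holds whole-number counts of reads by gene, per the file headers. The authors deposited 25567 genes per library, and no row without a gene was used.

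Symbols came from GENCODE M21. The members and all gene lists were chosen with earlier results of these data known. All 36 members are named. From each other list up to 4 genes that passed are named, largest fold change first. CPM was computed on deposited totals, and CPM per kb on the merged exons of each gene. Low-count genes were removed by filterByExpr (minimum count 10). Libraries were scaled by TMM, and the test was the quasi-likelihood test of edgeR 4.0.16 in R 4.3.3, with Benjamini-Hochberg adjustment over all genes tested. A gene passed at an adjusted p under 0.05. Fold changes are log2, with the standard error (SE) taken from the F statistic. The sibling pair was a term in each genotype comparison, since the labels name the siblings. As a check of this pairing, testis siblings deviated together from the means of their groups, with correlations of 0.236 to 0.385. Ovary had correlations of -0.217 to 0.366, female liver of 0.082 to 0.346, male liver of 0.193 to 0.458, male brain of 0.014 to 0.531 and female brain of 0.206 to 0.673. Testis was set against male liver and male brain over pairs with both +/+ libraries, and against ovary without pairing. Pair differences in testis were tested with all pair terms together. The scripts were tested on simulated counts with planted 1.5-fold and 2-fold changes, of which 80% and 92% were called in the testis genotype comparison. That simulation held no pair differences and no changes as small as those of the members, so it does not bear on them. The title numbers and genotype labels of male liver pair 3 conflict, and the genotype labels were followed. Copies of members were searched with blastn 2.17.0 over the M21 transcripts, at 90% identity over at least 200 bases. Promoter windows were read from RefSeq (GRCm38.p6). Alternatives used DESeq2 1.42.0, other scalings and filters, no pair term and fewer libraries. Robust estimation of the spread and scaling by library totals alone were chosen after seeing the data. The number of libraries and the counts of a gene set the precision. Intervals of genotype fold changes describe the precision of the mean difference between siblings, with pair differences removed by the pair term. They do not cover the range of single libraries.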

Additional observations from a re-analysis of the deposited data

Results flagged for a closer look

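In testis 0 of 72 groups of a member's values had a library far from the others, and elsewhere 5 of 74 did. Chance gives such a flag in about 1 of 20 groups. Ldhc was at 3.33 CPM in the +/+ ovary of pair 5, above the other +/+ ovaries. Tssk4 was at 4.28 CPM in the +/t ovary of pair 6, above the other +/t ovaries. Kcnu1 was at 3.23 CPM in the +/t male brain of pair 2, above the other +/t male brains. Odf2 was at 21.9 CPM in the +/+ male liver of pair 1, above the other +/+ male livers, and Catsper2 was at 4.07 CPM in the +/+ male liver of pair 4, below the others.

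The sum over the 25 members tested in testis alone stood apart in 3 of 10 groups of other tissues. It was 21.1 CPM in the +/+ male liver of pair 1, 16.8 CPM in the +/+ female liver of pair 4 and 4.57 CPM in the +/t female liver of pair 2.

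Catsper2 was higher in the +/t sibling in each testis pair, with a log2 fold change of 0.108, and lower in the +/t sibling in each male brain pair, with a log2 fold change of -0.276. Neither passed the threshold, and the difference between the tissues was not tested.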

How the results depend on the processing

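Testis libraries held 11.4 M to 28.4 M counts, and the 6 testis pairs limit the precision. Of the 36 testis members, 3 passed with the pair as a replicate block and 0 with no replicate block, when 76 genes passed in place of 187. With DESeq2, with robust spread or with no filter 5 members passed, against 206 of 15509, 245 of 15509 and 222 of 22237 genes. With library totals alone 0 members and 154 genes passed. Leaving out each pair in turn gave 0 to 2 members and 89 to 159 genes, and leaving out the pairs with even counts 0 members and 65 genes. Over 15 alternatives Aldoart2 passed in 9 (adjusted p 5.8e-05 to 0.890), Odf2 in 7 (0.00198 to 0.762) and Odf1 in 5 (0.00533 to 0.868). The test of pairs gave 7 to 23 members and 806 to 2089 genes when each pair was left out. It gave 13 members and 1732 genes with library totals alone, and 19 members and 1260 genes without the even-count pairs. The causes were not tested.

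No member passed elsewhere under any alternative, while the counts of all genes moved. In ovary 46 passed with DESeq2, 10 with a minimum count of 50, and 3 to 15 with a pair left out. In male brain 109 passed with no filter, 19 with no replicate block, 19 without the even-count pair and 19 to 39 with a pair left out. In female brain these were 23 with a minimum count of 50, 21 with no replicate block, 12 without the even-count pairs and 22 to 30 with a pair left out. In male liver 52 passed with DESeq2, 19 with robust spread and 72 with no filter. In female liver 37 passed with DESeq2, 17 with no replicate block and 5 to 10 with a pair left out. Testis stayed above each other tissue for 36 of 36 members under every alternative run.

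Log2 fold changes changed sign only for values that had not passed. In testis, Fscb was -0.0016 with library totals alone and -0.016 to 0.052 with a pair left out, and Catsper4 -0.017 to 0.014. In ovary with a pair left out, Catsperd was -0.146 to 0.202, Catsperg1 -0.072 to 0.169 and Tssk4 -0.134 to 0.121. Without the even-count pair they were -0.146, -0.072 and 0.020, and Tssk4 was 0.0024 with no replicate block. In male brain, Eno4 was -0.198 to 0.371, Catsperz -0.010 to 0.065 and Kcnu1 -0.061 to 0.147 with a pair left out. Without the even-count pair Eno4 was -0.198 and Catsperz -0.0045, and Catsperz was -0.0028 with library totals alone. In female brain with a pair left out, Catsperg1 was -0.297 to 0.082 and Catsperz -0.148 to 0.012, and without the even-count pairs Eno4 was -0.025 and Kcnu1 -0.0026. With a pair left out, male liver Ropn1l was -0.035 to 0.088 and Spag4 -0.094 to 0.318, and female liver Catsper2 -0.0074 to 0.141, Catsperd -0.149 to 0.238 and Catsperg1 -0.255 to 0.040.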
